A study of Mus musculus with 13 samples.

Results

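The trophoblast-associated genes described here are 9 mouse genes, Tfap2c, Cdx2, Hand1, Ascl2, Gcm1, Esx1, Elf5, Fgfr2 and Ets2. They were represented by every probe set whose platform annotation names 1 of them alone. On the Affymetrix MG-U74A array this gave 10 of 12654 probe sets, and on its second version, MG-U74Av2, 11 of 12488. In all there were 12 different probe sets for 8 of the 9 genes, out of 8388 genes with a probe set of their own. Gcm1, which drives formation of syncytiotrophoblast in the placental labyrinth, had no probe set annotated with its symbol, so it was not analysed here.

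Mouse embryonic stem (ES) cells stay undifferentiated with leukaemia inhibitory factor (LIF), and the study lysed them 3 days after plating without it, controls included. Treated cells received PD169316 or SB203580, each at 10 µM. Both are p38 kinase inhibitors of the pyridinyl imidazole type. On the 2-phenyl ring, the para substituent is nitro in PD169316 and methylsulfinyl in SB203580. Cells were of the line S1, which grows without feeder cells, or of the line D4, which needs them and was cultured without them for 2 rounds before use. On U74A, S1 had 2 control arrays, 2 with PD169316 and 1 with SB203580, and D4 had 1 array for control and 1 for PD169316. On U74Av2, S1 had 2 arrays for each of the 3 conditions. Whether replicates were separate cultures is not stated, and p-values therefore reflect the spread between these arrays, which may be technical. RNA came from adherent cells in bulk, so fewer cells of a type and less RNA per cell cannot be told apart.

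The trophoblast arises from the trophectoderm, the outer epithelium of the blastocyst. Cdx2, Tfap2c, Elf5 and the FGF receptor Fgfr2 act in trophoblast stem cells, which depend on FGF4 made by the neighbouring inner cell mass. Ascl2, Hand1, Gcm1 and Esx1 act later, in the differentiated layers of the placenta. In ES cells the pluripotency factor Pou5f1 represses Cdx2, and loss of Pou5f1 turns ES cells towards trophoblast. Several of these genes also have other roles: Tfap2c acts in germ cells, Hand1 and Cdx2 in mesoderm, and Ets2 and Fgfr2 in many tissues.

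Cdx2 and Pou5f1 were both measured here, so the promoter of Cdx2 is shown. It is the 250 bases before the RefSeq start of the gene, on the minus strand at chr5:147307250-147307499 of GRCm38.p6, and a script marked in capitals the matches to a pair of motifs.
Cdx2: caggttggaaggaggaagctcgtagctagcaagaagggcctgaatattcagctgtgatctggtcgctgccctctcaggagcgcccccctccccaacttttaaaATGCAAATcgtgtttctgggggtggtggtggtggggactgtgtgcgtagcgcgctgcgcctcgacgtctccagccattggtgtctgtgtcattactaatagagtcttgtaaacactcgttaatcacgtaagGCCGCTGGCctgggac
The first match, 147 bases before the start, is the octamer ATGCAAAT, the motif of POU factors such as Pou5f1. The match nearer to the start, 16 bases before it, is to GCCNNNGGC, the motif of the AP-2 family to which Tfap2c belongs. Both strands were searched and the matches do not overlap. Among the 8 windows of 300 bases (250 before to 50 after the start) found for 7 of the 9 genes, the Cdx2 window alone held a match to either motif. Of 32851 such windows of all genes, 16.6% held the AP-2 motif and 1.74% the octamer. A match is only a run of letters, and the arrays do not measure binding.

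The deposited value is a signal, a brightness per probe set scaled by the authors to a common array mean. A signal of 100 was taken as the level above which a probe set could be read with some confidence, and signals under 32 were set to 32 before ratios were taken. Of the members' probe sets, 8 of 10 on U74A and 10 of 11 on U74Av2 reached 100 on at least 1 array. Far fewer did so throughout: in S1, Tfap2c and the brightest of 4 Fgfr2 probe sets were at or above 100 on every array of both versions, and Ets2 on every U74Av2 array and on 4 of 5 U74A arrays. Tests took probe sets at 100 or above on at least 2 arrays of a fit. This kept 5 of the 10 members' probe sets on U74A (Tfap2c, Fgfr2, Ets2, Ascl2 and Hand1) and 7 of 11 on U74Av2 (the same ones, Cdx2 and a second Fgfr2 probe set). Elf5, Esx1, the second Hand1 probe set and the remaining Fgfr2 probe sets were too dim to test.

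**Figure D1:**
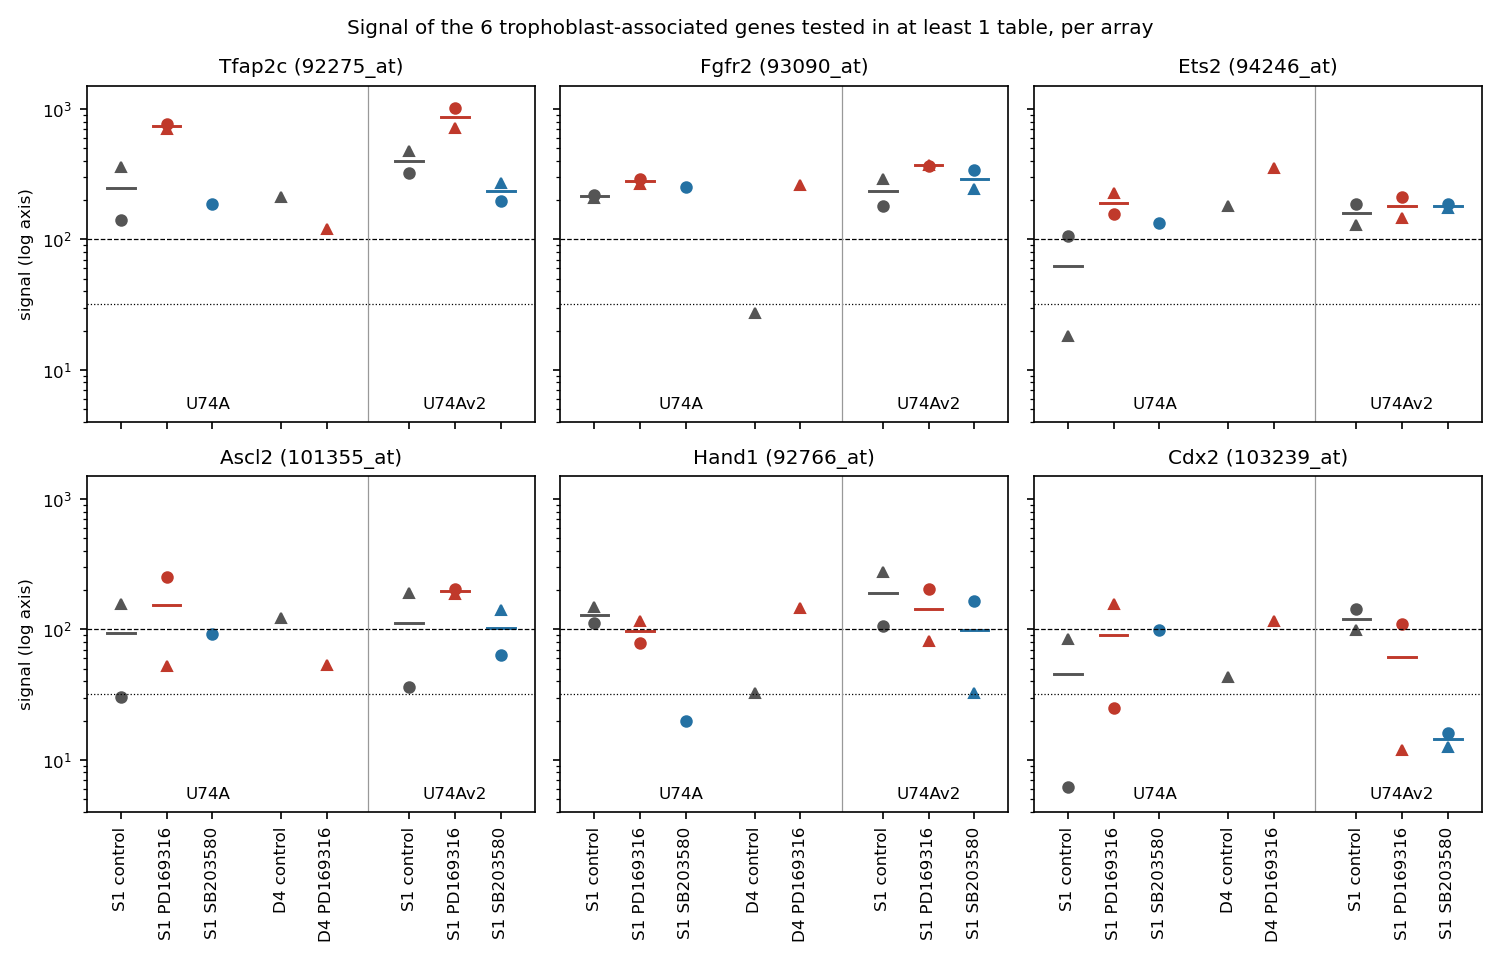
Signal per array (log axis) of the 6 genes tested in at least 1 table, by group, with U74A left and U74Av2 right of the grey line. Points are single arrays (circles hybridized on day 3, triangles on other days), bars are means of 2 arrays, the dashed line is a signal of 100 and the dotted line the floor of 32. The PD169316 arrays of Tfap2c lie above all S1 control and SB203580 arrays of their table, while the groups of Hand1, Ascl2 and Cdx2 mostly overlap.

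As a check on the cells, the ES markers Pou5f1, Sox2, Zfp42 and Utf1 were at or above 100 on all S1 arrays, and so was Nanog, which could be read on U74Av2 only. Pou5f1 lay between 3450.4 and 6606.4 on U74A and between 4130.3 and 9165.4 on U74Av2. Of 5 markers of trophoblast stem cells, Tfap2c alone was at or above 100 on all S1 arrays. Cdx2, Elf5, Eomes and Esrrb reached at most 156.0, 107.2, 106.2 and 87.5. Hybridization dates in the deposited instrument records fell on 5 days. Day 3 held 1 array of every S1 group on both versions, and the S1 controls of that day had a ratio of 3′ to 5′ signal of Actb of 3.31 and 3.21, against 1.46 to 2.25 on all other arrays; this ratio rises as RNA degrades. The same ratio of Gapdh was 1.42 and 1.58 on these controls and 0.874 to 1.71 on the others, with the highest value on the day 4 array with SB203580. PD169316 log2 ratios of day 3 correlated between the versions (r = 0.431 over 5369 probe sets), against 0.240, 0.0836 and 0.0547 for the other combinations of replicates; whether these arrays carried the same RNA is not stated. The versions were therefore tested separately, and their combined test allowed for the correlation of their test scores.

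The comparison of PD169316 with control asked which genes differed in signal between treated and untreated S1 cells after plating without LIF. The arrays do not measure p38 activity. Tfap2c, the AP-2 factor needed to maintain trophoblast stem cells, had the smallest p of the members. On U74A its signal was 140.3 and 356.1 on the control arrays and 767.4 and 703.4 on the PD169316 arrays. On U74Av2 it was 322.2 and 475.2 in controls and 1009.4 and 710.9 with PD169316. The PD169316 arrays were above the control arrays of their table in both tables, without overlap, which held for 6.82% of the 5369 probe sets tested in both. Within the replicate pairs, which on each version were hybridized together, the signal with PD169316 was 5.47-fold and 1.98-fold the control on U74A and 3.13-fold and 1.50-fold on U74Av2, higher in 4 of 4 pairs. In both versions the larger ratio was that of day 3, whose controls were the lower ones.

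The fitted log2 fold change of Tfap2c was 1.72 ± 0.51 (SE; 95% interval 0.56 to 2.87) on U74A and 1.11 ± 0.34 (0.37 to 1.86) on U74Av2, with a mean of 1.42 ± 0.36. It did not pass in limma after Benjamini-Hochberg adjustment, with an adjusted p of 0.855 on U74A, 0.361 on U74Av2 and 0.154 in the combined test, where it ranked 57th of 5369 by p. With the versions taken as independent, a setting that called 1.88% of probe sets, the adjusted p was 0.0158. It was 0.0492 with the replicate number and 0.0274 with the hybridization day as a block in limma, and 0.0441 without the second U74A control, at a mean of 1.75. Without the day 3 controls the mean fell to 0.94 and the adjusted p was 0.689, and with 1 ratio for each hybridization day it was 1.20 ± 0.34 (SE) with an adjusted p of 0.506. The direction was the same in each of these fits, and the call was made in 4 of 21 alternatives.

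None of the members passed in this comparison on U74A, on U74Av2 or in the combined test. The background was low: limma called 1 of 5681 probe sets (0.0176%) on U74A, 9 of 7050 (0.128%) on U74Av2 and 12 of 5369 (0.224%) in the combined test, where 358 (6.67%) had an unadjusted p under 0.05. Of the 5 members in the combined test, 4 had a positive mean log2 fold change, and the median of the 5 was 0.94 against 0.03 over all probe sets tested. This median is the value of Ets2, for which 1 U74A control lay under the floor. By version the members' median was 0.70 on U74A and 0.44 on U74Av2, where Cdx2 was tested as well and 4 of 6 were positive.

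Fgfr2, the receptor through which FGF4 sustains trophoblast stem cells, did not pass with PD169316. Its brightest probe set, meant below wherever none is specified, read 220.8 and 208.9 in U74A controls against 290.3 and 266.0 with PD169316, and 181.8 and 290.2 against 367.6 and 374.0 on U74Av2. The signal was higher with PD169316 in 4 of 4 pairs, by 1.27-fold to 2.02-fold, and the groups did not overlap in either table, as was the case for 6.82% of probe sets. The mean log2 fold change was 0.53 ± 0.33 with a limma adjusted p of 0.906. A second probe set for the gene, whose suffix s_at marks probes that can also bind other transcripts, was dim on both versions. It had a log2 fold change of -0.24 ± 0.86 on U74Av2 and was lower with PD169316 in 2 of the 3 pairs that could be compared, so the probe sets of Fgfr2 did not move together. The other Fgfr2 probe set of U74Av2 stayed between 1.6 and 54.4, and that of U74A was listed at 0 on all arrays.

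Ets2, a transcription factor that trophoblast stem cells need to renew themselves, read 106.4 and 18.1 in U74A controls and 157.5 and 225.9 with PD169316. On U74Av2 the groups overlapped, with 188.4 and 128.0 in controls and 212.8 and 146.0 with PD169316. The log2 fold change was 1.69 ± 0.76 (95% interval -0.03 to 3.42) on U74A, where the second control array lay under the floor, and 0.18 ± 0.41 (-0.72 to 1.09) on U74Av2. Its signal was higher in 4 of 4 pairs, though only 1.13-fold and 1.14-fold in those of U74Av2, and the limma adjusted p of the combined test was 0.919.

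Ascl2, a basic helix-loop-helix factor of the spongiotrophoblast, had signals that differed between hybridization days. Controls of day 3 read 30.4 on U74A and 36.2 on U74Av2, and the other controls read 157.2 and 188.5. With PD169316 the signals read 254.2 and 52.1 on the U74A arrays, and 205.1 and 185.6 on those of U74Av2. The log2 ratio was therefore 2.99 and 2.50 in the pairs of day 3, and -1.59 and -0.02 in the other pairs. The mean log2 fold change of 0.97 ± 0.76 (limma adjusted p = 0.926) became -0.20 without the day 3 controls. The part of RNA integrity in these ratios was not tested.

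Hand1, a basic helix-loop-helix factor required for trophoblast giant cells, read 112.3 and 147.4 in U74A controls against 79.1 and 116.8 with PD169316, and 106.6 and 273.5 against 204.8 and 80.9 on U74Av2. It was lower with PD169316 in 3 of 4 pairs, with a mean log2 fold change of -0.41 ± 0.65 (limma adjusted p = 0.982). The second Hand1 probe set read 71.8 and 81.5 in controls and 135.8 and 48.3 with PD169316, so that both were higher in the U74Av2 pair of day 3 and lower in the other.

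Cdx2, the homeodomain factor that specifies trophectoderm, stayed near the limit of what the arrays read. On U74A its signals were 6.2 and 84.2 in controls and 24.9 and 156.0 with PD169316. On U74Av2 they were 143.4 and 98.1 in controls and 110.7 and 11.9 with PD169316, the opposite direction. The log2 fold change on U74Av2 was -0.99 ± 0.89 (95% interval -2.95 to 0.96), with a limma adjusted p of 0.850.

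The dimmest members were Elf5 and Esx1, which no S1 fit took in. Elf5, an Ets factor of the trophoblast stem cell circuit, read 7.7 to 27.5 in the S1 controls and 13.7 to 107.2 with PD169316, and only 1 S1 array reached 100. Esx1, an X-linked homeodomain factor of the labyrinth, read 30.8, 39.9, 41.1 and 16.6 in the controls and 74.4, 64.4, 101.6 and 85.1 with PD169316. Every PD169316 array of Esx1 was above every control of its table, which held for 6.82% of the probe sets tested, a set without Esx1. Within pairs the signal was 1.61-fold and 2.47-fold the control where that lay above the floor, and 2.33 and 2.66 times the floor in the other pairs. A single S1 array reached 100.

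**Figure D2:**
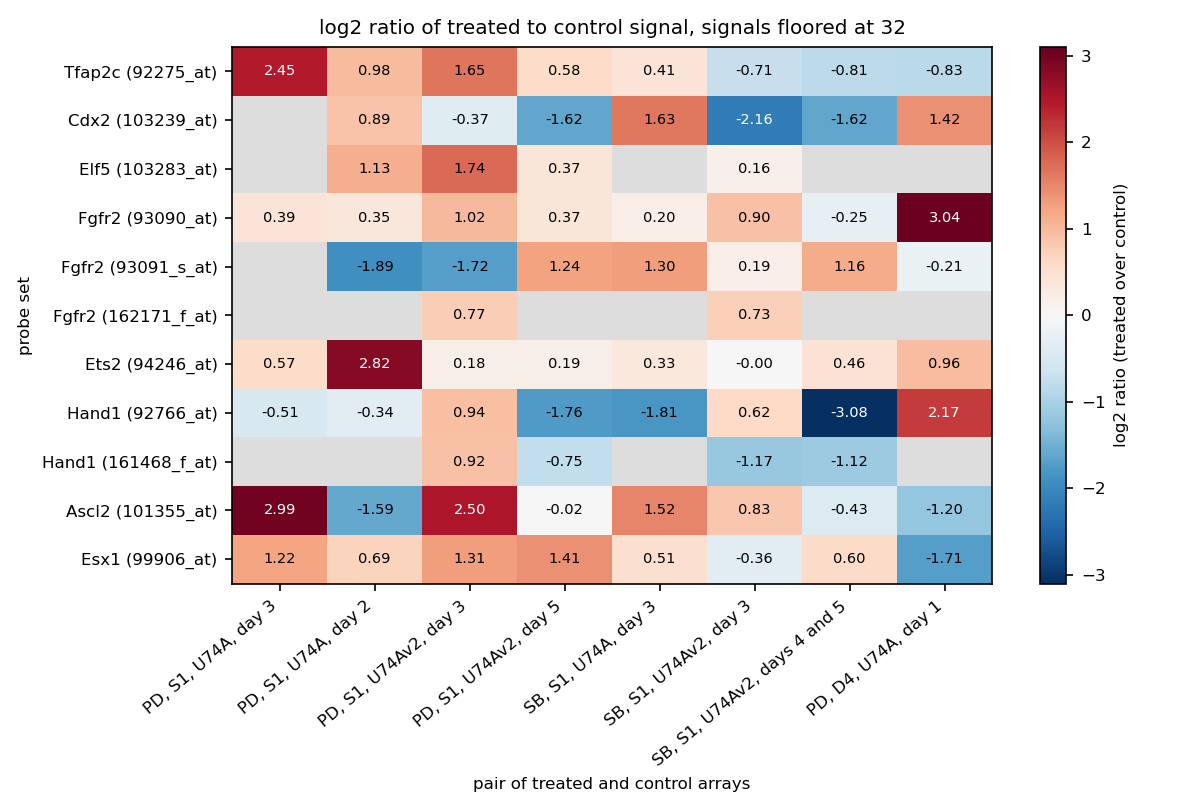
Heat map of log2 ratios of treated over control signal (signals floored at 32) for the members' probe sets (rows) and each pair of arrays (columns), red for higher and blue for lower with treatment. Grey marks pairs with both arrays at or under the floor and probe sets absent from that version. Tfap2c, the brightest Fgfr2 probe set, Ets2 and Esx1 are positive in all 4 S1 pairs of PD169316. In D4, Tfap2c, Esx1, Ascl2 and the Fgfr2 probe set with the suffix s_at are negative.

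SB203580 was compared with control on the same arrays, so both comparisons share their controls. Tfap2c read 186.0 on the U74A array with SB203580, between its controls. On U74Av2 it read 197.6 and 271.6, below both controls, as held for 20% of the 7050 probe sets tested. Its log2 fold change was -0.27 ± 0.62 (95% interval -1.68 to 1.15) on U74A and -0.76 ± 0.34 (-1.50 to -0.01) on U74Av2, with an adjusted p of 1.0 in limma's combined test. None of the members passed, and neither did any of the 5369 probe sets (0%) of the combined test, of which 162 (3.02%) had an unadjusted p under 0.05 and which gave 0 calls also with the versions taken as independent. The median of the 5 members was 0.28, against -0.003 over all probe sets tested. By version the members' median was 0.24 on U74A and -0.28 on U74Av2, where Cdx2 was tested as well.

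Hand1 had the smallest p of the members with SB203580. It read 19.8 on the U74A array, while the U74Av2 arrays gave 164.3 and 32.4, where the array of day 3 was the higher one and lay within the range of the controls. The mean log2 fold change was -1.62 ± 0.66, with an unadjusted p of 0.0305 and an adjusted p of 1.0 in limma, and it was -0.87 with a floor of 64. The second Hand1 probe set read 15.3 and 37.4 with SB203580, below both controls. Such a separation held for 20% of 7050 probe sets tested on U74Av2, a set without this one. Cdx2 read 16.2 and 12.5 on U74Av2, both under the floor and, like those 20%, below both controls. On U74A, however, it read 98.8, above both controls, as held for 27.2% of the probe sets tested there, a set without Cdx2. Its log2 fold change on U74Av2 was -1.89 ± 0.89 (95% interval -3.85 to 0.07) against the floor, with a limma adjusted p of 0.983. The remaining tested members, Fgfr2, Ets2 and Ascl2, had mean log2 fold changes of 0.29 ± 0.35, 0.71 ± 0.55 and 0.28 ± 0.80, and Ascl2 turned to -0.89 without the day 3 controls.

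**Figure D3:**
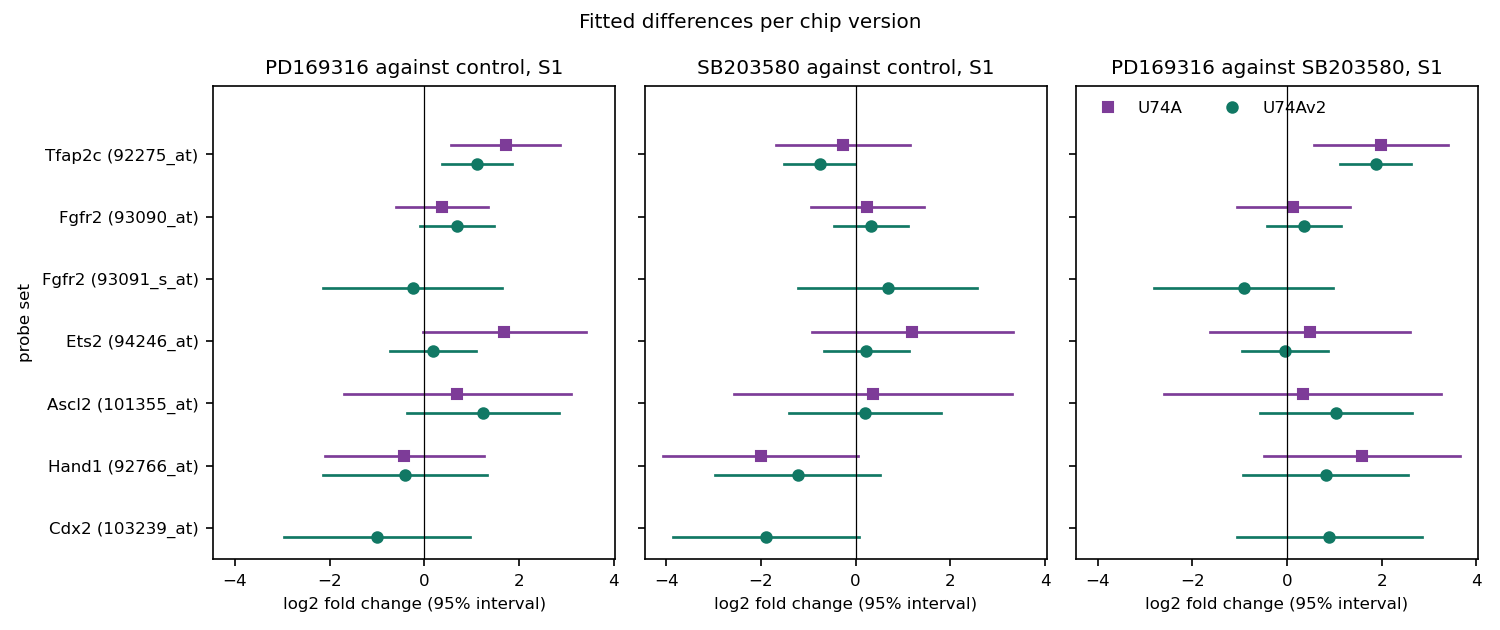
Fitted log2 fold change with its 95% interval for each tested probe set in 3 S1 comparisons, on U74A (squares) and U74Av2 (circles). The intervals of Tfap2c lie above 0 for PD169316 against control and against SB203580 on both versions, that for SB203580 against control lies below 0 on U74Av2, and all other intervals include 0.

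The compounds form 1 pair, given at the same dose for the same time, and they were compared directly in S1. Tfap2c was higher with PD169316 than with SB203580 on every array of its table, 703.4 to 767.4 against 186.0 on U74A and 710.9 to 1009.4 against 197.6 to 271.6 on U74Av2. Such a separation in both tables held for 11.7% of the 5369 probe sets. The log2 fold change was 1.98 ± 0.62 (95% interval 0.57 to 3.40) on U74A and 1.87 ± 0.34 (1.12 to 2.62) on U74Av2, with a mean of 1.93 ± 0.41. It ranked 10th of 5369 in limma's combined test with an adjusted p of 0.115 and did not pass. In that test 6 probe sets (0.112%) passed and 328 (6.11%) had an unadjusted p under 0.05. The adjusted p was 0.00472 with the versions taken as independent (0.689% called), 0.0283 without the day 3 controls, and 0.0192 or 0.0308 without the first or the second U74A control. On U74Av2 alone (0.0426% called) the limma adjusted p was 0.108, and it was 0.0420 with the replicate number and 0.00926 with the hybridization day as a block. In all, Tfap2c passed in 4 of 19 alternatives of the combined test, where the adjusted p reached 0.639 without a filter and was 0.0970 with 1 ratio per day and 0.0511 with the day as a block. It passed in 2 of 14 on U74Av2, where the adjusted p reached 0.9998 without the first PD169316 array.

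For the other members the intervals of the difference between the compounds included 0 on both versions. On U74Av2 they ran from -0.42 to 1.14 for Fgfr2, -0.95 to 0.86 for Ets2, -0.56 to 2.65 for Ascl2, -0.92 to 2.56 for Hand1 and -1.06 to 2.85 for Cdx2. A difference of 2-fold, which is 1 on the log2 scale, was thus outside the interval on this version only for Ets2, and the data do not show that the compounds acted alike on the rest.

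In D4 cells 1 array was made for each condition, so ratios have no replicate check. Tfap2c read 212.6 in the control and 119.7 with PD169316, a log2 ratio of -0.83, against 2.45 and 0.98 in the S1 pairs of the same array version. Esx1 read 164.7 and 50.3, a log2 ratio of -1.71, against 1.22 and 0.69 in S1, and its D4 control was above all its S1 signals on U74A. Ascl2 was also lower with PD169316, at 53.4 against 122.9.

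Fgfr2, Hand1, Ets2 and Cdx2 were higher with PD169316 in D4. Fgfr2 read 27.2 in the D4 control, under the floor, and 262.3 with PD169316, which is 8.20 times the floor. Hand1 read 32.5 and 146.7, Ets2 181.7 and 353.5, and Cdx2 43.5 and 116.0, while Elf5 stayed under the floor at 3.8 and 24.5. Of 6282 probe sets, 10.9% were at least 2-fold higher with PD169316 in D4 and 11.4% at least 2-fold lower.

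The difference between the lines was tested on U74A with the D4 arrays assumed to vary like those of S1. With D4 controls of Fgfr2 and Hand1 at or near the floor, their values depend on it. The D4 effect minus the S1 effect was -2.55 ± 0.93 (95% interval -4.65 to -0.44, unadjusted p = 0.0232) for Tfap2c, 2.66 ± 0.85 (0.74 to 4.59, unadjusted p = 0.0124) for Fgfr2 and 2.60 ± 1.25 (-0.24 to 5.43) for Hand1 in this limma fit across all probe sets. With a floor of 64 it was 1.66 for Fgfr2 and 1.62 for Hand1. After adjustment none of them passed, each with an adjusted p of 0.9997, and neither did any of the 6282 probe sets (0%), of which 156 (2.48%) had an unadjusted p under 0.05.

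Lists of related genes were read beside the members. Among 13 other regulators of trophectoderm and trophoblast stem cells, 7 were tested on both versions and 1, Id2, rose with PD169316. Id2, an inhibitor of basic helix-loop-helix factors that is high in trophoblast stem cells and also a target of BMP signals in ES cells, lay at 504.0 and 821.2 or 287.0 and 598.7 in controls of U74A and U74Av2. With PD169316 it lay between 1492.4 and 2021.0 on all 4 arrays. Its log2 fold change was 1.72 ± 0.31 with a limma adjusted p of 0.0428, and it lost the call in 12 of 21 alternative fits, with adjusted p from 0.000113 to 0.503. Among these were the fits without any one of the 4 PD169316 arrays, the second U74Av2 control or either U74Av2 array with SB203580, with adjusted p from 0.0535 to 0.131. Tfap2a and Klf5, the next by p, had log2 fold changes of 1.27 ± 0.64 and 0.96 ± 0.34 and did not pass. On U74Av2 Tfap2a entered the fit only through its PD169316 arrays, at 121.8 and 230.3 against 22.9 and 83.3 in controls. Its positive sign on that version was thus fixed by the filter. The list's median was 0.70.

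Of 13 epithelial genes of the trophectoderm, 7 were tested and none passed with PD169316, although all 7 had positive log2 fold changes with a median of 1.11. The keratins Krt8, Krt18 and Krt19, which line simple epithelia of many kinds, had values of 1.95 ± 0.40, 1.31 ± 0.36 and 2.35 ± 0.69 and limma adjusted p of 0.0524, 0.154 and 0.237. On U74Av2 Krt19 entered the fit only through its PD169316 arrays, at 177.8 and 301.6 against 6.9 and 44.6 in controls. Its positive sign on that version was thus fixed by the filter. The adjusted p of Krt8 ranged from 0.000113 to 0.553 over the alternative fits, and without the second U74A control it was 0.00358 for Krt8 and 0.0348 for Krt18. The median of the same 7 genes with SB203580 was 0.08, and on U74A alone it was -0.50. On U74Av2 the SB203580 arrays of Krt8 (524.4 and 534.4) and Krt18 (282.2 and 308.1) were above both controls, as held for 15.3% of 7050 probe sets. On U74A, Krt8 at 319.8 and Krt18 at 286.9 lay between their controls. Of 28 placental products and regulators, 11 were tested, none passed and the median was 0.08. Phlda2, Peg10 and Gjb5, which had the smallest p, had log2 fold changes of 0.47, 0.81 and 0.61.

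On the side of the FGF4 signal, 8 of 13 listed genes were tested, 6 had negative log2 fold changes with PD169316, none passed and the median was -0.41. Fgf4, the ligand of Fgfr2 made by ES cells, read 1559.4 to 2986.9 in S1 controls and 1077.7 to 1323.8 with PD169316. Its log2 fold change was -1.08 ± 0.27 with a limma adjusted p of 0.152, of 0.0148 with the versions taken as independent and of 0.0464 without the second U74A control. Over 21 alternatives it ranged from 0.00697 to 0.659 and passed in 4. Fgfr1, an FGF receptor, and Etv4, an Ets factor induced by FGF signals, had log2 fold changes of -0.88 and -0.90. In D4, Fgf4 read 708.7 in the control and 1181.4 with PD169316. Among 5 tested ES factors that act against trophoblast fate, none passed with PD169316 and the median was -0.09, with -0.90 for Utf1 and -0.09 for Sox2. The log2 fold change of Pou5f1 was -0.57 ± 0.24, with an adjusted p of 0.658, and its signal stayed at 3450.4 or above on all S1 arrays with PD169316.

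Markers of other cell types were read as well, and none of their tested genes passed in limma's combined test with PD169316. The 6 tested markers of extraembryonic endoderm had a median log2 fold change of 0.54, with 1.71 for Col4a1, 1.63 for Sparc and 0.81 for Lama1, all genes of basement membranes, and -0.81 for the endocytic adaptor Dab2. The endoderm transcription factors Sox17 and Gata6 had lower mean signals with PD169316 in both tables, Sox17 at 25.8 against 95.3 on U74A and 62.4 against 108.1 on U74Av2. The U74A controls read 18.9 and 171.6 for Sox17 and 13.4 and 123.8 for Gata6, so these control means rested on a single array each. The factor Gata4 had a higher mean with PD169316 on U74A (190.4 against 33.95) and a lower one on U74Av2 (116.85 against 241.15). Ttr was higher in both tables (66.7 against 39.4 and 120.55 against 72.45), and Afp was lower in both. The summed signal of 6 endoderm markers was 207.7 to 888.7 in U74A controls and 339.9 to 548.1 with PD169316, and 683.5 to 935.9 against 521.2 to 625.0 on U74Av2. The 4 tested germ cell markers had a median of 0.76, with 3.63 for Stra8 (adjusted p = 0.0524), a retinoic acid response gene, 0.83 for the receptor Kit and -0.35 for the phosphatase Alpl. Stra8 controls read 16.1 to 26.8 on U74A and 14.8 to 44.1 on U74Av2, so it entered both fits only through treated arrays. The filter thus favoured its positive sign, and with a floor of 64 its value was 2.75. The summed signal of 6 germ cell markers was 304.7 to 320.0 in U74A controls and 798.9 to 1773.3 with PD169316, and 398.6 to 564.3 against 651.6 to 1882.9 on U74Av2, in the same arrays in which Tfap2c, itself expressed in germ cells, was high. On both versions Stra8 carried most of this difference. Its means in controls and with PD169316 were 29.5 and 693.9 on U74Av2, and 21.45 and 592.65 on U74A. On U74Av2 Kit had 175.85 and 274.9, Prdm1 35.15 and 69.35, Ddx4 156.8 and 158.7, Dazl 50.6 and 55.0, and Dppa3 33.7 and 15.5. On U74A every marker of the sum had a higher mean with PD169316, such as Ddx4 (168.85 against 75.5) and Kit (263.2 against 125.2). That of Dppa3 rested on 1 array, with 8.6 and 124.3 on the PD169316 arrays. Stra8 ranged from 134.1 to 1051.2 on the U74A arrays with PD169316. Alpl is not in the sum. In D4, with 1 array a condition, the sum was 278 in the control and 598.5 with PD169316, while Tfap2c read 212.6 and 119.7. The part of such cells in the Tfap2c signal was not tested. The 3 tested fibroblast markers had a median of -0.82 (Thy1 -1.08, Col1a1 -0.82 and Fn1 0.31) and the 2 of primitive streak, Wnt3 and Hoxb1, -0.68 and -0.20. In the other S1 comparisons, Cldn4 and Zfp42 (1.63 and 0.89 for PD169316 against SB203580) and Dusp6 and Junb (1.18 and -1.09 for SB203580 against control) were among the 3 genes of their lists with the smallest p, and none of them passed.

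**Figure D4:**
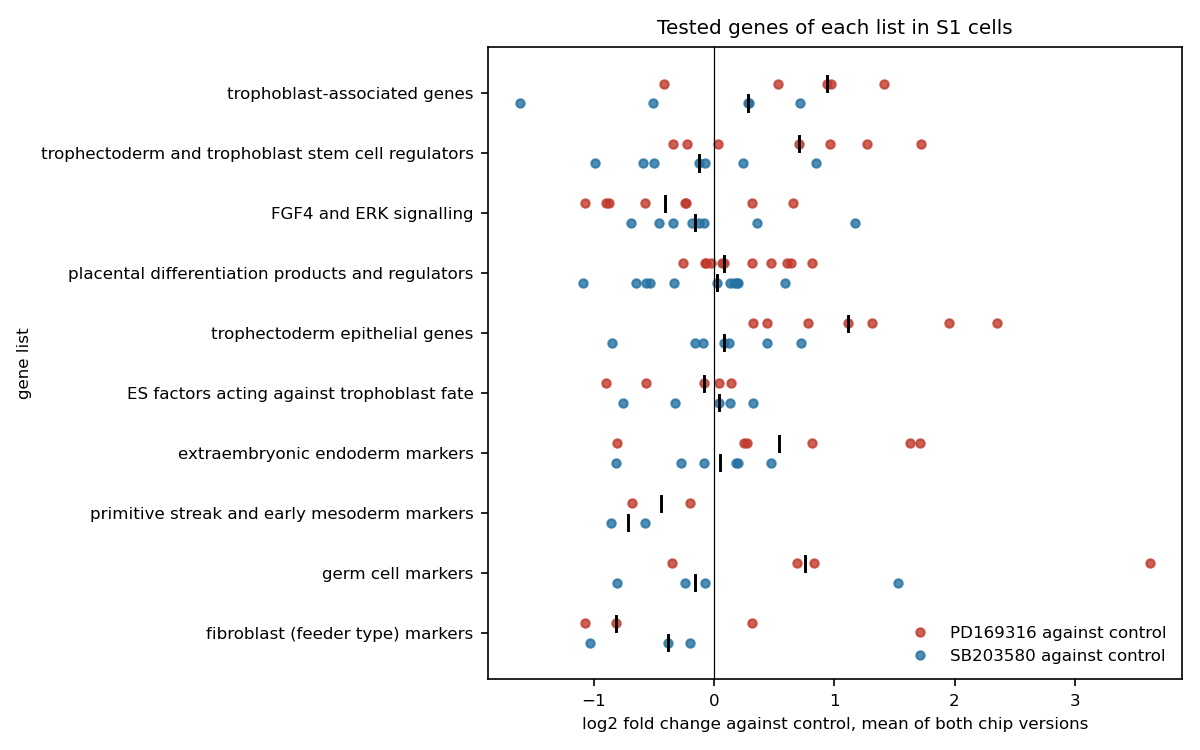
Mean log2 fold change of both chip versions in S1 for the tested genes of each list, for PD169316 (red) and SB203580 (blue) against control, with a black bar at each list's median. All 7 epithelial genes lie above 0 with PD169316, and the placental products centre on 0.

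The genes most like Tfap2c over the S1 arrays were Tfcp2l1, Mfge8 and Ephx2, with mean Pearson r of 0.97, 0.95 and 0.95 over 5 U74A and 6 U74Av2 arrays, out of 4861 probe sets. The likeness of Tfcp2l1, a transcription factor of naive pluripotency, was that of 1 probe set, with a PD169316 log2 fold change of 1.34. A second one for the same gene had -0.10. These are descriptions over few arrays that share their treatment groups and hybridization days. Those most like Fgfr2 were Traf6, Stmn2 and Tuba1a, those most like Ets2 were Tm9sf3, Sdhaf2 and Gng3, those most like Ascl2 were Coprs, Atp6v1h and Atxn10, and those most like Hand1 were Trim13, Polr2a and Gstm3, with mean r from 0.85 to 0.98.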

How the data were processed

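Groups follow the sample titles of 13 arrays. What was deposited is an intensity (signal) for each probe set: the authors ran Microarray Suite 5.0 with global scaling, setting the trimmed mean of every array to a target of 300, per the labels. The trimmed means found here were 300.2 or 300.3. Hybridization days were read from the deposited instrument records and numbered by date. Gene names come from GEO's platform annotation, which gives 1 symbol to 10276 probe sets of U74A and 10833 of U74Av2, several to 363 and 396, and none to 1949 and 1193. Each table was scaled on its own, so tests stayed within a table.

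Here signals were floored at 32 and put on the log2 scale, on which changes of dim genes come out too small. A probe set entered a fit if 2 or more of its arrays reached 100. Tests were two-sided, with version 3.58.1 of limma under R 4.3.3 (trend in eBayes), Benjamini-Hochberg adjustment over all probe sets tested and a threshold of 0.05. Within a table, 1 spread was estimated over the S1 groups, and single arrays were assumed to vary alike. The combined test summed the z scores of both tables and divided by the square root of 2 + 2r, with r their correlation (0.429 for PD169316, 0.207 for SB203580, 0.441 between the compounds). Precision is limited by how few arrays there were. The fits were tested on simulated data.

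The text names all members, list genes that passed or had 1 of the 3 smallest p in their list (for PD169316 against control, or over all S1 comparisons), Pou5f1 and Fgf4, and the 3 probe sets most like each member tested on both versions. For a list gene with more than 1 probe set, the brightest was taken. Other marker genes, and Eomes, Gata3 and Tead4, were named after their values were seen. The members, the 9 lists and the tests were chosen with earlier results of these data known. Alternatives were quantile normalization, no filter or a minimum of 200, floors of 16 and 64, replicate or day as a block, no day 3 controls, each array left out, independent versions, and 1 ratio per day.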

Additional observations from a re-analysis of the deposited data

Results flagged for a closer look

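In 3 members the PD169316 log2 ratio of D4 was opposite in sign to both S1 pairs on U74A, which held for 20.7% of 6282 probe sets tested, a set without Esx1. The members in that set were Tfap2c, Cdx2, Hand1, Ascl2, Fgfr2 and Ets2, and of these only Tfap2c and Hand1 showed it. For Tfap2c the ratio was -0.83 in D4 against 2.45 and 0.98 in S1, and the fitted difference between the lines was -2.55 with a limma adjusted p of 0.9997. For Hand1 it was 2.17 in D4 against -0.51 and -0.34, and the difference was 2.60 with an adjusted p of 0.9997, or 1.62 with a floor of 64. For Esx1 it was -1.71 in D4 against 1.22 and 0.69, and this difference was not tested because the gene was too dim.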

How the results depend on the processing

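The number of members that passed was 0 in each comparison and became 1, Tfap2c each time, in 10 of 146 alternatives. For PD169316 against control in the combined test it was 1 with the replicate block, with the day as a block, with independent versions and without the second U74A control, and 0 to 1 when each array was left out. For PD169316 against SB203580 it was 1 on U74Av2 with either block, and in the combined test 1 with independent versions and without the day 3 controls, and 0 to 1 when each array was left out. The replicate numbers carry no stated pairing, and with 2 pairs a table the deviations of same-numbered arrays correlated at 0.208 on U74A and 0.0802 to 0.179 on U74Av2. The replicate block raised the count of all probe sets called in the combined PD169316 test from 12 to 67, the day block to 100 and independent versions to 101, while no filter and 1 ratio per day gave 0. Over all alternatives this count ran from 0 to 101, that of SB203580 from 0 to 2, that between the compounds from 0 to 37 around 6, and that between the lines from 0 to 393 around 0. For single tables the ranges were 0 to 10 on U74A and 0 to 160 on U74Av2 for PD169316, 0 to 74 and 0 to 15 for SB203580, and 0 to 73 and 0 to 56 between the compounds.

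Among fitted values of single members' probe sets under the alternatives, 714 kept their sign and side of the threshold, 10 (Tfap2c) passed anew and 36 reversed sign, none of a value that had passed. Without the day 3 controls Ascl2 became -0.45 on U74A and -0.20 in the combined test for PD169316, and -0.78, -0.99 and -0.89 on U74A, U74Av2 and combined for SB203580, and Fgfr2 became -0.00912 on U74Av2 for SB203580. With a floor of 64, Ascl2 became -0.13, -0.21 and -0.17 for SB203580. With the day as a block, Tfap2c became 0.0394 on U74A for SB203580, and between the compounds on U74Av2 Hand1 became -0.36, Fgfr2 -0.0486 and Ets2 0.18. Quantile normalization gave -0.0737 for Ascl2 and -0.0513 for Fgfr2 between the compounds on U74A, and 1 ratio per day gave -0.0306 for Ets2 in the combined test. Sox2 became 0.0134 with quantile normalization and 0.0219 without the day 3 controls. The cause of these reversals was not tested.

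With each array left out in turn, PD169316 values ran from -0.45 to 1.84 for Ascl2 on U74A, and on U74Av2 from -1.09 to 0.27 for Hand1, -0.10 to 0.46 for Ets2 and -1.02 to 0.46 for the second Fgfr2 probe set. SB203580 values ran from -0.94 to 0.41 for Tfap2c and -0.78 to 0.37 for Ascl2 on U74A. On U74Av2 they ran from -0.99 to 1.39 for Ascl2, -0.00912 to 0.67 for Fgfr2, -0.10 to 0.97 for its second probe set and -0.0515 to 0.51 for Ets2, and in the combined test from -0.31 to 0.88 for Ascl2. Between the compounds on U74Av2 they ran from -0.35 to 1.99 for Hand1 and -0.32 to 0.23 for Ets2. The difference between the lines ran from -1.60 to 0.13 for Ets2 and -0.17 to 1.67 for Cdx2. Hoxb1 ran from -0.71 to 0.24 with PD169316 in the combined test. The difference between the lines without the U74A arrays of day 3, an alternative chosen after seeing the data, could not be fitted. The U74A array with SB203580 carries no replicate number, so no replicate block was possible for it.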

Other observations

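Eomes, a T-box factor of trophoblast stem cells and of the primitive streak, is given here after its values were seen. Its signal was 382.4 in the D4 control and 13.4 with PD169316, while all S1 arrays of U74A lay between 18.4 and 96.8. Gata3, a trophectoderm factor, read 96.0 and 15.4 in the same D4 arrays, against 11.7 to 17.8 in S1 controls and 39.6 to 72.8 in S1 with PD169316 on U74A. Other regulators of the same list went the other way in these arrays, Id2 from 214.8 to 1280.5 and Klf5 from 640.7 to 1103.1, as did Cdx2, from 43.5 to 116.0, while Tead4 read 245.9 and 120.9. These D4 values come from 1 array a condition and have no replicate check.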
